A study of Mus musculus with 12 samples.

Results

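The genes described here are 10 feedback regulators and targets of ERK signalling: the Sprouty genes Spry1, Spry2 and Spry4, the Sprouty-related genes Spred1 and Spred2, the phosphatase genes Dusp4, Dusp5 and Dusp6, and the transcription factor genes Etv4 and Etv5. They are 10 of the 18193 genes that the platform annotation names by a single symbol. Every probe set annotated to 1 of them was taken, which gave 28 of the 45101 probe sets on the array. Of these, 19 probe sets from 9 genes passed the filter on low values (log2 value over 4 on at least 3 arrays) and entered the test, among 20292 probe sets in all. Both probe sets of Etv4 failed it and are given by their values only.

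ERK is the last kinase of a chain that runs from receptor tyrosine kinases, such as the receptors for fibroblast growth factors, through RAS, RAF and MEK. Active ERK switches on genes whose products damp the same chain: Sprouty and SPRED proteins act at or above RAF, and dual-specificity phosphatases remove the activating phosphates from ERK itself. Etv4 and Etv5 encode ETS transcription factors that are themselves switched on by this signalling. In the embryonic forebrain these genes are widely used as a readout of fibroblast growth factor signalling, and in the adult brain ERK is activated by neurotrophins and by neuronal activity.

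Expression was measured on 12 Affymetrix arrays from 129/Sv mice, with 3 arrays in each of 4 groups. The first group was the dorsal cerebral cortex of adult Qkf gt/gt mutants, homozygous for a gene-trap allele of Kat6b (also called Qkf or Myst4), the gene of a histone acetyltransferase; these males were 155, 112 and 99 days old, and the wild-type adults set against them were males of 155, 112 and 101 days. The third group was the dorsal telencephalon of Qkf gt/gt embryos at E12.5, in mid-gestation, set against wild-type E12.5 telencephalon. Embryos with replicate number 1 came from one cross and those with numbers 2 and 3 from another, and their sex was not labelled. The sources used here do not say whether an array held RNA of 1 embryo or of several; an embryonic array is called an embryo below. The gene trap is carried in every cell of the mutants.

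The promoters of the members are shown first because ERK reaches its targets through factors that bind near the start site: ETS factors, whose core is GGAA, and serum response factor, which binds the CArG box. RefSeq promoters (GRCm38.p6, 250 bases before to 50 after the start) were found for 7 of the 10 genes, 8 promoters in all; Spry4, Dusp4 and Etv4 had no entry. The Dusp5 promoter, at chr19:53528895-53529194 on the plus strand, is shown with its CArG boxes in capitals, and those of Spry1 (chr3:37639697-37639996, plus strand), Dusp6 (chr10:99262981-99263280, plus strand) and the inner start of Etv5 (chr16:22438319-22438618, minus strand) with the ETS core, GGAA or its complement TTCC, in capitals.
Dusp5: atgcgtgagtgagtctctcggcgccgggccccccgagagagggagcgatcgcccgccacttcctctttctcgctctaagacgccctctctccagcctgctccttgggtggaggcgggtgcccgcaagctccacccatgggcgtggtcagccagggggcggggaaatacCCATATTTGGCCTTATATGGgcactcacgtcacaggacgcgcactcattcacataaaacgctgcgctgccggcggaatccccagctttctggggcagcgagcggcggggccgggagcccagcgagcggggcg
Spry1: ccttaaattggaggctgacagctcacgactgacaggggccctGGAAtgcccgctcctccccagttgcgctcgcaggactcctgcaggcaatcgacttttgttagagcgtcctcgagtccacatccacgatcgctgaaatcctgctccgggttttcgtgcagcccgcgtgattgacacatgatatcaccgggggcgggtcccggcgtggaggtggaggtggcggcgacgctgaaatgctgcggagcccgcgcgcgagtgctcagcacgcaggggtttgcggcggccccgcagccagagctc
Dusp6: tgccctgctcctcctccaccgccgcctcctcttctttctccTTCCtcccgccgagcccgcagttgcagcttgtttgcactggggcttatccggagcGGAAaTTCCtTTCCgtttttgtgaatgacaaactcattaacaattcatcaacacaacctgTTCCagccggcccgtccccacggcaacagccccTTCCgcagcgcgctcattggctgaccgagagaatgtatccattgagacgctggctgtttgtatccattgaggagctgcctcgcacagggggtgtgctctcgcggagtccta
Etv5: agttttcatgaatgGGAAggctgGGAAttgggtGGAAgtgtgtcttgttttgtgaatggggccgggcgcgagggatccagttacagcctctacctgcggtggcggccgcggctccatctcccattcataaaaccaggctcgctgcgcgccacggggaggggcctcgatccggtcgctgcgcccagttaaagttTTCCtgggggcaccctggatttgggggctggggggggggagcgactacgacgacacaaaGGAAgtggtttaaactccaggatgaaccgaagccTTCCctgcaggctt
The Dusp5 promoter held 2 adjoining CArG boxes, 82 to 73 and 72 to 63 bases before the start, and no other promoter of the 8 held one; 1.63% of all 32851 promoters of this length did. None of the 8 held the ETS consensus CCGGAAGT (3.89% of all promoters), the AP-1 site TGACTCA (5.2%), the CREB site TGACGTCA (1.79%) or the octamers TGAATGAA (1.3%) and TGAATGGA (1.21%) of Capicua, a repressor that ERK removes from its targets. The ETS core occurred in 7 of the 8, all but the outer start of Etv5 at chr16:22439521-22439820, and in 96.0% of all promoters, so its presence sets no member apart. Both strands were searched, the matches describe letters only, and the ETS core and the Capicua octamers were added to the search after the data had been seen.

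All values below are log2 expression values, and a difference is mutant minus wild type or adult minus embryonic. Each array had a floor of 2.19, which held 26.3% to 27.6% of its values, so differences that involve the floor understate the change. Kat6b, which checks the labels, was lower in the mutants at both stages: its probe set 1423508_at read 7.25, 7.17 and 6.92 in mutant adults, against 9.68, 9.35 and 9.72 in wild-type adults (difference -2.47, limma adjusted p = 0.024). In the embryos it read 6.22, 7.24 and 7.72 in mutants, against 11.28, 11.40 and 11.42 in wild types (-4.31, adjusted p = 0.000184). A second tested probe set, 1447758_x_at, differed by -2.82 in embryos (limma adjusted p = 3.86e-05). In adults it differed by -0.40 and was not called, at 2.19 in mutants, against 2.24 to 2.86 in wild types, near the floor. A further probe set, 1446189_at, lay at the floor on all 12 arrays, so the check in adults rests on 1423508_at. The sources used here do not say on which side of the insertion these probe sets lie. The labelled tissues carried their markers, with neuron markers at a mean of 10.80 to 11.04 in adults and radial glia and dorsal progenitor markers at 11.13 to 11.28 in embryos. All adults carried the male pattern; Xist, the gene of the RNA that silences one X chromosome in females, read 12.7 to 13.1 in mutant embryo 3 and wild-type embryos 1 and 2 and lay at the floor in the other 3 embryos. The difference between the 3' and 5' actin control probe sets, a sign of RNA quality, was 1.91, 1.47 and 1.09 in mutant adults, against 1.06 to 1.13 in wild-type adults, and 0.73 to 0.80 in mutant embryos, against 0.71 to 1.03 in wild-type embryos; its part in the results below was not tested. In whole tissue, fewer cells that express a gene and less RNA per cell cannot be told apart.

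**Figure D1:**
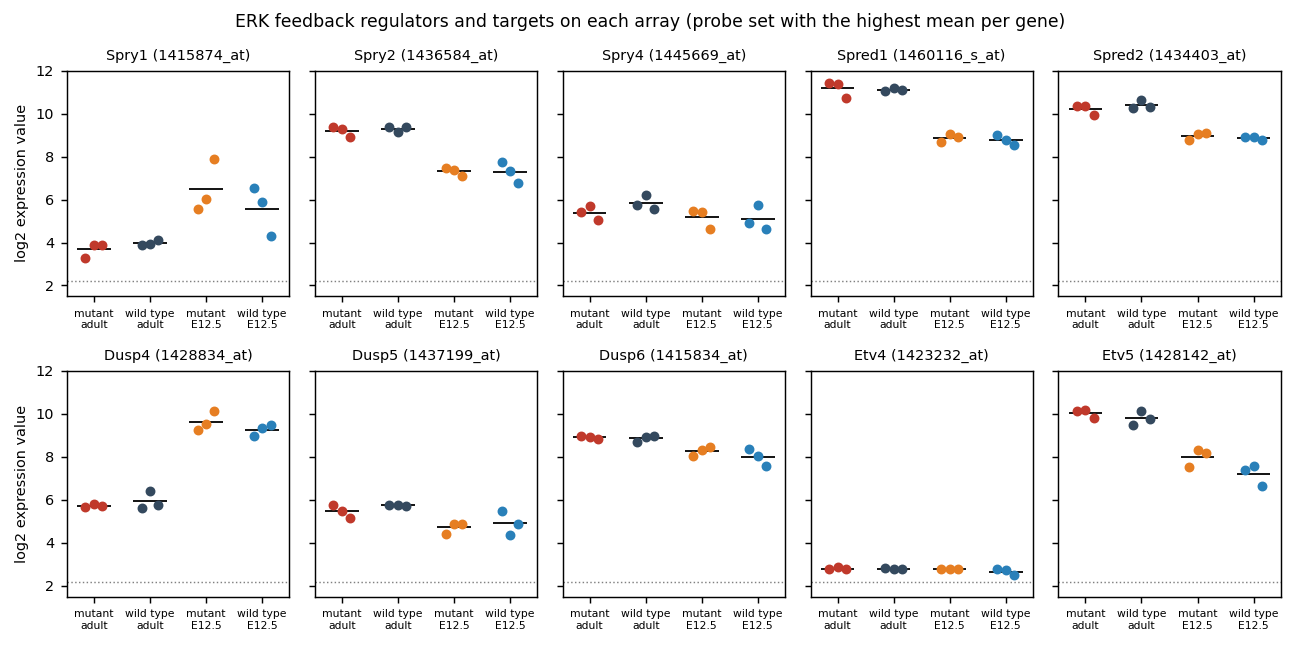
Log2 expression value of each gene on each array, for the probe set of highest mean; columns from left to right are mutant and wild-type adults, then mutant and wild-type E12.5 embryos. Points are arrays in replicate order, bars are group means, and the dotted line is the floor at 2.19. Dusp4 and Spry1 are higher in the embryos, Spry2, Spred1, Spred2, Dusp5, Dusp6 and Etv5 are higher in the adults, and Etv4 stays near the floor.

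In adult cortex no member passed the test between Qkf mutants and wild types: 0 of the 19 probe sets were called at an adjusted p under 0.05, where 0.0246% of all probe sets were. The differences ran from -0.46 for Spry4 to 0.26 for a probe set of Spred1, 8 were positive and 11 negative (55.4% of all probe sets were positive), and their median was -0.06, against 0.02 over all 20292 probe sets. None had an unadjusted p under 0.05, as 930 of all probe sets did. The value ranges of the genotypes overlapped for all 19, while 9.65% of all probe sets had ranges that did not overlap. These limma tests pooled the spread over the 4 groups, and every adjusted p of a member was 1.

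Among the inhibitors that act upstream, Spry2 read 9.38, 9.28 and 8.93 in mutant cortex, against 9.36, 9.13 and 9.38 in wild-type cortex. The probe set of Spred1 with the highest mean (1460116_s_at) read 11.43, 11.38 and 10.72 in mutants, against 11.07, 11.19 and 11.09 in wild types. That of Spred2 (1434403_at) read 10.36, 10.37 and 9.93 in mutants, against 10.26, 10.63 and 10.30 in wild types. In each of these probe sets mutant adult 3 was the lowest of the 6 adults, and the other mutants lay among or above the wild types. Without mutant adult 3 the difference was 0.29 in place of 0.06 for this Spred1 probe set and -0.03 in place of -0.17 for this Spred2 probe set. Mutant adult 3 was again the lowest in some other probe sets, such as Spred1 1423160_at (9.46), but not in all. Wild-type adult 1 was the lowest in Spred1 1428777_at (8.60) and Spred2 1441802_at (5.56). Without mutant adult 3 the difference of Spred1 1428777_at was 0.28 in place of 0.26. Spry1 was low in every adult, at 3.30, 3.88 and 3.88 in mutants, against 3.88, 3.95 and 4.10 in wild types. Spry4 (1445669_at) had the largest negative difference, with 5.40, 5.72 and 5.03 in mutants, against 5.75, 6.23 and 5.54 in wild types. Its difference of -0.46 had a 95% interval of -1.17 to 0.26, and mutant adult 2 lay above wild-type adult 3.

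No phosphatase or ETS factor gene passed in adult cortex either. Dusp6, whose product is a cytoplasmic phosphatase specific for ERK, read 8.98, 8.92 and 8.83 in mutants, against 8.71, 8.93 and 8.98 in wild types. The groups overlapped fully, and the 95% interval of the difference was -0.37 to 0.45. Dusp4 and Dusp5 encode nuclear phosphatases: Dusp4 read 5.65, 5.80 and 5.74 in mutants, against 5.64, 6.40 and 5.76 in wild types. Dusp5 read 5.77, 5.47 and 5.16 in mutants, against 5.77, 5.77 and 5.73 in wild types. Dusp5 took the identical value of 5.77 in mutant adult 1 and in wild-type adults 1 and 2, and the cause of such repeated values was not tested. Etv5 (1428142_at) read 10.12, 10.20 and 9.80 in mutants, against 9.47, 10.14 and 9.78 in wild types, a difference of 0.24 with an interval of -0.38 to 0.86. Its second tested probe set, 1450082_s_at, had a difference of the other sign, -0.12, and both intervals covered 0.

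Adult arrays were not alike over the members. With the probe set of highest mean for each of the 9 tested genes, mutant adult 3 was the lowest of the 6 adults for 5 genes, where it was the lowest for 22.0% of all tested probe sets. Wild-type adult 1 was the lowest for 3 genes (16.4% of all), and mutant adult 1 was the highest for 4 (24.5% of all). Among these 4, Dusp5 was a tie with wild-type adults 1 and 2. A tie was counted for the first array only, with mutants before wild types, so the counts and share of mutant adult 1 include its ties. Over the 19 tested member probe sets mutant adult 3 was the lowest for 9 and wild-type adult 1 for 8. Ttr, a gene of the choroid plexus, read 15.16 in mutant adult 3, against 7.69 and 8.34 in the other mutant adults and 6.78 to 9.18 in wild-type adults (1454608_x_at). The mean over the cortical hem and choroid plexus markers was 5.64 in that array and 4.11 to 4.52 in the other 5 adults. This list holds Ttr, so its mean includes the value just given and is not separate from it. Of its 6 tested genes, 3 had a positive difference between mutant and wild-type adults (median 0.07). The part of Ttr and of this list in the low member values was not tested. No astrocyte, myelin or oligodendrocyte precursor marker was called in adults (adjusted p of 1 for each). Of the astrocyte markers 6 of 6 were positive in mutant adults (list mean 10.12 to 10.27 per array, against 10.04 to 10.13 in wild types), while 0 of 6 myelin markers were (10.68 to 10.94 in mutants, against 10.76 to 11.23 in wild types). Oligodendrocyte precursor markers were positive in 1 of 5 (7.24 to 7.57 in mutants, against 7.42 to 7.59 in wild types), and the part of these cells in the member values was not tested.

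In E12.5 telencephalon, likewise, 0 of the 19 probe sets were called, where 0.0641% of all were, but the differences leaned upwards in the mutants. Of the 19, 14 were positive and 5 negative, with a median of 0.09, against -0.01 over all probe sets and a share of positive differences of 47.4% over all. The largest differences were those of Spry1 (0.90), Etv5 (0.81 and 0.80 in its 2 tested probe sets), Dusp4 (0.37) and Dusp6 (0.29). The lowest was Dusp5 at -0.19. Unadjusted p-values under 0.05 were found for 2 of the 19, both of Etv5, and for 920 of all probe sets. Members share arrays and probe sets share genes, so these counts are descriptions. Mutant embryo 1 belongs to another array set than the other 5 embryos, and without it 0 of the 19 were called as well, with Etv5 at 1.06 and 0.90.

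Etv5 was the member with the smallest p in the embryos. Its probe set 1428142_at read 7.52, 8.34 and 8.18 in mutant embryos, against 7.37, 7.58 and 6.65 in wild-type embryos. Mutants 2 and 3 lay above every wild type, and mutant 1 lay between wild types 1 and 2. The difference of 0.81 (SE 0.28, 95% interval 0.20 to 1.43, 1.76-fold) did not pass the adjustment over all probe sets (limma adjusted p = 0.855). The second probe set, 1450082_s_at, read 5.35, 5.53 and 5.77 in mutant embryos, against 5.15, 4.99 and 4.12 in wild-type embryos. Here the 3 mutants lay above the 3 wild types, which made it the only one of the 19 member probe sets whose groups did not overlap; mutants lay wholly above wild types in 3.19% of all probe sets and groups did not overlap in either direction in 7.65%. Its difference was 0.80 (SE 0.25, interval 0.24 to 1.35, adjusted p = 0.735). Wild-type embryo 3 was the lowest embryo in both probe sets, and without it the differences were 0.54 and 0.48. With the sex pattern as a covariate they were 0.99 and 1.01, and without the first cross 1.15 and 1.10; neither passed the adjusted test under any alternative. The untested probe set 1420998_at read 2.40 to 2.89 in mutant embryos, against 2.39 to 2.87 in wild-type embryos, near the floor.

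Spry1, which encodes an inhibitor of receptor tyrosine kinase signalling, varied more among embryos of 1 genotype than between the genotypes. It read 5.54, 6.02 and 7.87 in mutant embryos, against 6.53, 5.88 and 4.33 in wild-type embryos. Mutant embryo 3 was the highest and wild-type embryo 3 the lowest, while the other 4 lay between 5.54 and 6.53 and were mixed between genotypes. Within each genotype the embryos with the Xist signal (mutant 3, wild types 1 and 2) lay above those without it. The part of sex itself in these values was not tested, and the sex pattern entered only as a covariate of the genotype difference, given below. The range of 2.33 among the 3 mutant embryos was exceeded by 0.473% of all tested probe sets, and the range of 2.20 among the wild types by 0.857%; the median ranges were 0.38 and 0.32. The genotype difference of 0.90 had a 95% interval of -0.43 to 2.23 and an adjusted p of 1. It was 0.20 without mutant embryo 3, 0.28 without wild-type embryo 3, 1.38 without wild-type embryo 1 and 1.37 without mutant embryo 1. Without the first cross, from which mutant embryo 1 and wild-type embryo 1 came, it was 1.84 (adjusted p = 0.457), and with the sex pattern as a covariate 1.56 (adjusted p = 0.070).

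The other phosphatase and Sprouty genes differed less in the embryos. Dusp6 read 8.04, 8.34 and 8.44 in mutant embryos, against 8.37, 8.02 and 7.56 in wild-type embryos. Its difference of 0.29 had an interval of -0.12 to 0.70, and it was 0.08 without wild-type embryo 3 and 0.49 without wild-type embryo 1. Dusp4 read 9.24, 9.54 and 10.16 in mutants, against 8.99, 9.35 and 9.48 in wild types, a difference of 0.37 that was 0.12 without mutant embryo 3. The genotypes of both genes overlapped. Spry2 read 7.48, 7.38 and 7.09 in mutants, against 7.76, 7.35 and 6.79 in wild types. Here the difference of 0.02 had an interval of -0.47 to 0.51. Spry4 read 5.48, 5.41 and 4.63 in mutants, against 4.91, 5.75 and 4.63 in wild types, with the lowest value shared by mutant embryo 3 and wild-type embryo 3. Dusp5 read 4.39, 4.89 and 4.89 in mutants, against 5.47, 4.38 and 4.89 in wild types.

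Spred1 and Spred2 had the smallest ranges over the 6 embryos among the 9 tested genes when each gene was read by its probe set of highest mean, at 0.47 and 0.31. Spred1 (1460116_s_at) read 8.69, 9.03 and 8.90 in mutants, against 9.02, 8.79 and 8.56 in wild types. Spred2 (1434403_at) read 8.79, 9.04 and 9.11 in mutants, against 8.90, 8.93 and 8.79 in wild types. Over the 7 tested probe sets of Spred1 the embryonic differences ran from -0.11 to 0.20, and over the 4 of Spred2 from -0.03 to 0.14. The intervals of all 11 covered 0, and the widest, that of Spred2 1436892_at, ran from -0.67 to 0.61.

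**Figure D2:**
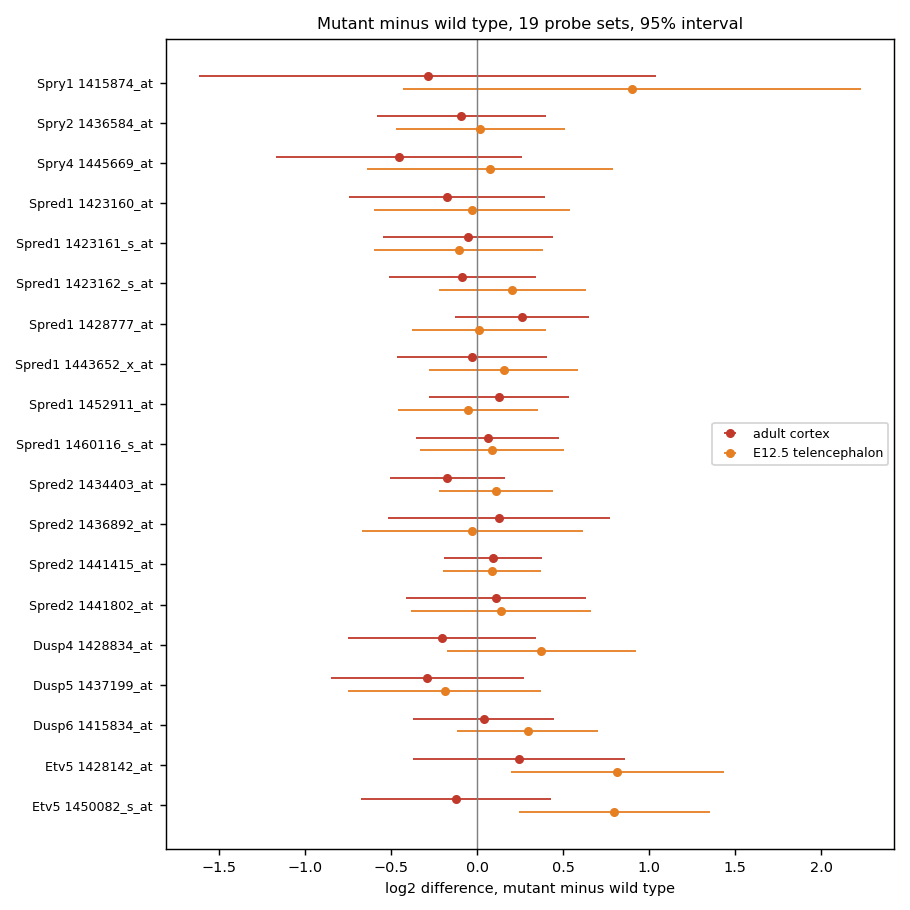
Difference in log2 expression, mutant minus wild type, for the 19 tested probe sets in adult cortex (red) and E12.5 telencephalon (orange). Points are the fitted differences and lines their 95% intervals, not adjusted for the number of tests. Both probe sets of Etv5 in the embryo lie to the right of 0 (0.81 and 0.80), and the intervals of Spry1 are the widest.

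Whether the effect of the mutation differed between the stages was tested directly as the adult difference minus the embryonic one. It passed for 0 of the 19 probe sets, where 0.0148% of all did, and 1 of the 19 had an unadjusted p under 0.05, against 1086 of all probe sets. That 1 was Etv5 1450082_s_at, at -0.92 (interval -1.70 to -0.14, limma adjusted p = 0.915). The other Etv5 probe set stood at -0.57 (interval -1.45 to 0.30), and Spry1 at -1.19 with an interval of -3.07 to 0.69. The sign was positive for 5 of the 19 and for 56.1% of all probe sets, with a median of -0.14, against 0.04 over all.

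The embryos differed from each other across the members. Read by the probe set of highest mean, wild-type embryo 3 was the lowest of the 6 for 6 of the 9 tested genes. It was the lowest, ties left out, for 9.94% of all tested probe sets. The 6 genes were Spry1, Spry2, Spred1, Spred2, Dusp6 and Etv5, with Spred2 at 8.793 there and 8.794 in mutant embryo 1. For Spry4 it shared the lowest value with mutant embryo 3. A tie was counted for 1 array only, the first in the order mutants 1 to 3, then wild types 1 to 3. Wild-type embryo 3 is last in that order, so ties, such as values shared at the floor, never counted for it and its share over all probe sets is a lower bound. Over the 19 tested member probe sets it was the lowest for 9. Some other Spred1 probe sets had another lowest embryo, such as mutant embryo 3 in 1423160_at (9.10) and wild-type embryo 1 in 1428777_at (6.57). Mutant embryo 3 was the highest for 4 genes, Spry1, Spred2, Dusp4 and Dusp6, and 29.7% of all probe sets were highest there. Il17rd, the gene of another inhibitor of fibroblast growth factor receptors (also called Sef) and no member, read 5.42, 5.87 and 6.53 in mutant embryos, against 6.23, 5.97 and 4.52 in wild-type embryos. Its highest and lowest embryos were those of Spry1, mutant 3 and wild type 3.

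Ligand genes and regional markers also differed between single embryos. Fgf17, which encodes a fibroblast growth factor of the rostral midline, read 5.29 in mutant embryo 3 and 2.19 to 2.21 in the other 5 (1421523_at), and its second probe set read 3.83 there and lay at the floor in the others. Fgf8 lay at the floor of 2.19 on all 12 arrays. Fgf15 read 4.85 in mutant embryo 1 and 5.48 in wild-type embryo 1, both of the first cross, and 2.32 and 2.76 in the other mutants, against 2.19 in the other wild types. Dlx2, a gene of the ventral telencephalon, read 8.43, 3.28 and 3.31 in mutants, against 9.04, 5.80 and 3.20 in wild types. The 6 ventral markers on the array averaged 5.55, 3.52 and 3.43 in mutants, against 6.10, 4.45 and 3.34 in wild types, with Nkx2-1 under the filter everywhere. The septum and rostral midline markers, 6 on the array with Fgf8 and Six3 under the filter, averaged 5.51, 5.35 and 5.84 in mutants, against 5.77, 5.16 and 5.20 in wild types. This list holds Fgf17, so its mean in mutant embryo 3 includes the 5.29 of that gene. The ventral list likewise holds Dlx2. These means are therefore not separate from the single genes named here, and means without them were not computed. The part of these differences between embryos in the member values was not tested. Fgf17, Fgf15 and Dlx2 were singled out after their values had been seen.

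**Figure D3:**
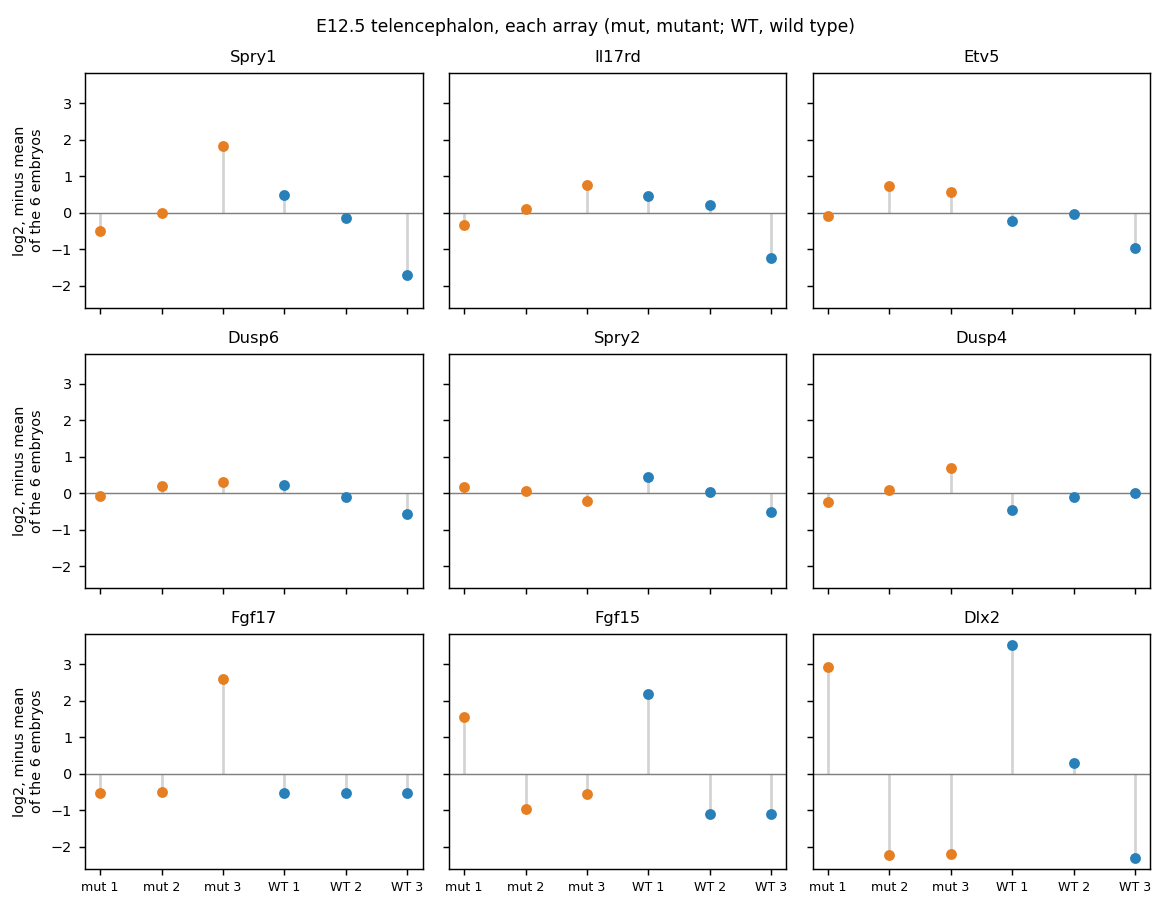
Log2 value of 9 genes on each of the 6 E12.5 arrays, minus the mean of the 6 embryos; mutants 1 to 3 are on the left and wild types 1 to 3 on the right of each panel. Spry1 and Il17rd are highest in mutant embryo 3 and lowest in wild-type embryo 3, Fgf17 is high in mutant embryo 3 only, and Dlx2 and Fgf15 are high in the first embryo of each genotype.

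Many more members were called between stages than between genotypes. Adult cortex differed from E12.5 telencephalon for 17 of the 19 probe sets in mutants (15 higher in adults, 2 lower) and for 17 in wild types (15 higher, 2 lower). Over all probe sets 79.5% were called in mutants (36.5% higher and 43% lower) and 79.3% in wild types (35.7% higher and 43.5% lower), so the share of members called, 17 of 19, is set against a background in which most probe sets changed. The groups did not overlap for 16 of the 19 in mutants, where 80.2% of all did not, and for 17 in wild types, where 82.6% did not. By gene, Spry2, Spred1, Spred2, Dusp5, Dusp6 and Etv5 were higher in adult cortex and Spry1 and Dusp4 lower, in both genotypes, while Spry4 was called in neither. The adult arrays and the embryonic arrays belong to different array sets in the labels, so stage and array set cannot be told apart.

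The genes that were lower in adults were Dusp4 and Spry1. Dusp4 differed by -3.92 in mutants (15.1-fold, limma adjusted p = 4.63e-08) and by -3.34 in wild types (10.1-fold, adjusted p = 1.87e-07). Every embryo lay above every adult, with the lowest embryo at 8.99 and the highest adult at 6.40. Spry1 fell by 2.79 in mutant adults relative to mutant embryos (interval -4.12 to -1.46, adjusted p = 0.00123). In wild types the Spry1 difference was -1.60 (interval -2.93 to -0.27, adjusted p = 0.0297). Spry1 exceeded the filter value of 4 in every embryo but, among adults, only in wild-type adult 3 (4.10). It thus entered the test mainly through the stage where it was higher. The wild-type call was lost without any of the 3 wild-type adults (-1.55, -1.59 and -1.66 without adults 1, 2 and 3), without wild-type embryo 1 (-1.12, adjusted p = 0.120) and without wild-type embryo 2 (-1.45). It was lost too with no filter on low values (-1.60, adjusted p = 0.0897), without the first cross (-1.12, adjusted p = 0.0864) and with the sex pattern as a covariate (-0.28, adjusted p = 0.363).

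Etv5 had the largest rise with stage among the members in wild types. Probe set 1428142_at was 2.03 higher in mutant adults than in mutant embryos (4.07-fold, adjusted p = 3.91e-05) and 2.60 higher in wild-type adults than in wild-type embryos (6.06-fold, adjusted p = 4.68e-06). Probe set 1450082_s_at was higher by 1.44 in mutants and by 2.36 in wild types. Spry2 was higher in adults by 1.88 in mutants (3.68-fold, adjusted p = 1.06e-05) and by 1.99 in wild types (3.98-fold, adjusted p = 6.42e-06). Dusp6 was higher by 0.63 in mutants (adjusted p = 0.0085) and by 0.89 in wild types (adjusted p = 0.000984). For Etv5, Spry2 and Dusp6 every adult lay above every embryo, and the Dusp6 gap between the lowest adult and the highest embryo was the narrowest of the 3.

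The many probe sets of Spred1 rose by different amounts. In mutants 5 of the 7 tested were 1.75 to 2.46 higher in adults, and in wild types the same 5 were 1.93 to 2.47 higher. Of these 5, 1443652_x_at exceeded the filter value of 4 in the 6 adults only, with embryos at 2.97 to 3.23. It thus entered the test through the stage where it was higher. The other 2, 1423160_at and 1423161_s_at, were higher by 0.67 and 0.68 in mutants and by 0.81 and 0.63 in wild types. Probe set 1423160_at read 10.20, 10.43 and 9.46 in mutant adults, against 9.45, 9.52 and 9.10 in mutant embryos, so that mutant adult 3 lay below mutant embryo 2. In wild types the same probe set read 10.11, 10.63 and 9.87 in adults, against 9.58, 9.39 and 9.20 in embryos. In mutants its call was lost without mutant adult 1 (0.58) or 2 (0.47) or mutant embryo 1 (0.72) or 3 (0.54), and in wild types without wild-type adult 2 (0.60). For 1423161_s_at the call was lost in mutants without adult 1 (0.62) or 2 (0.49), and in wild types without adult 2 (0.43) or without embryo 2 (0.63) or 3 (0.62). Calls of 1423160_at were also lost with the sex pattern as a covariate in mutants (adjusted p = 0.060) and in wild types (adjusted p = 0.055), and in mutants with no filter on low values (adjusted p = 0.0855) and without the first cross (adjusted p = 0.0557). The wild-type call of 1423161_s_at was lost with no filter (adjusted p = 0.0603), with the sex covariate (adjusted p = 0.0938) and without the first cross (adjusted p = 0.0593). The 5 steeper probe sets kept their calls in both genotypes when any 1 array was left out. Where on the transcript each probe set lies was not analysed here.

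Spred2 and Dusp5 changed less. For Spred2, 1434403_at was higher in adults by 1.24 in mutants (adjusted p = 1.32e-05) and by 1.52 in wild types (adjusted p = 2.27e-06). Probe sets 1436892_at and 1441415_at were higher by 1.20 and 0.74 in mutants and by 1.05 and 0.73 in wild types; the wild-type call of 1436892_at was lost with the sex pattern as a covariate (0.79, adjusted p = 0.0613). Probe set 1441802_at went the other way without being called: -0.33 in mutants and -0.30 in wild types. Dusp5 was higher by 0.74 in mutants (adjusted p = 0.0194) and by 0.84 in wild types (adjusted p = 0.00996), and in mutants the call was lost without mutant adult 1 (0.59) or mutant embryo 1 (0.57), with no filter on low values (adjusted p = 0.0553) and with quantile normalization (0.60, adjusted p = 0.0547). Spry4 differed by 0.21 in mutants (interval -0.50 to 0.93, adjusted p = 0.560) and by 0.74 in wild types (interval 0.03 to 1.46, adjusted p = 0.0538). In mutants it was -0.06 without mutant embryo 3. The wild-type difference of Spry4 passed the threshold without wild-type adult 3 (0.89), wild-type embryo 2 (1.07) or mutant embryo 3 (0.74, adjusted p = 0.0379). With all arrays kept, it passed narrowly with a filter on the mean over 12 arrays (above 5, adjusted p = 0.0495). It also did so with median centring (adjusted p = 0.0494) and with a trended, robust variance model (adjusted p = 0.0495).

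**Figure D4:**
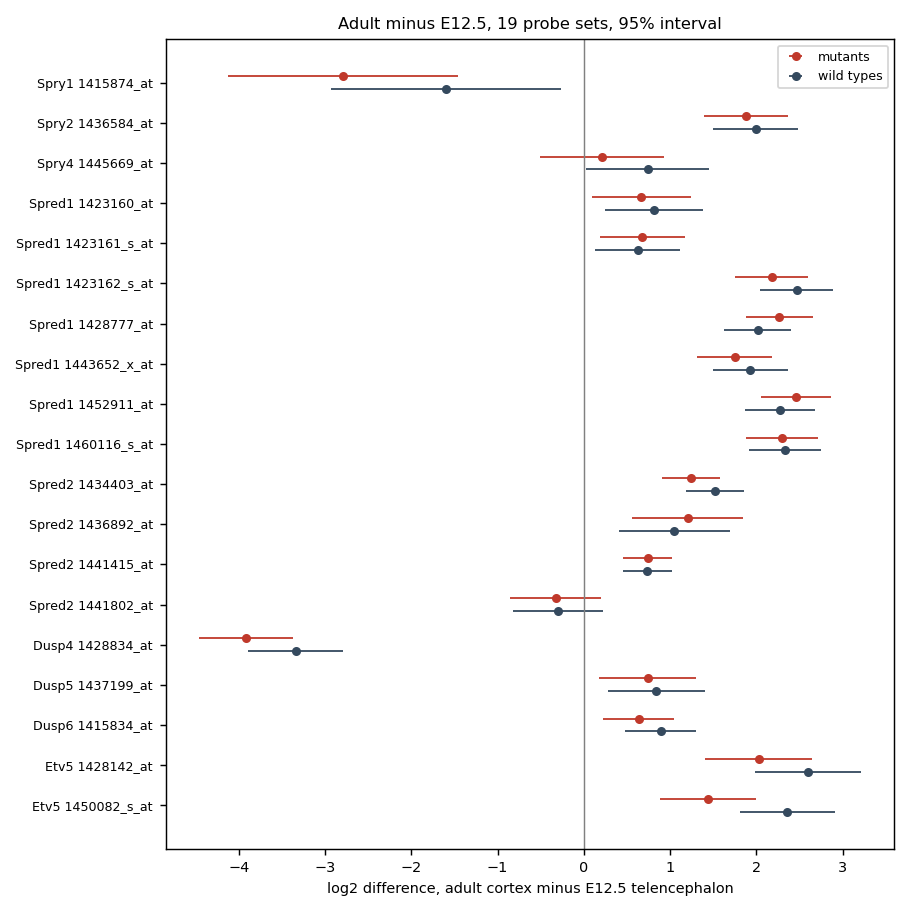
Difference in log2 expression, adult cortex minus E12.5 telencephalon, for the 19 tested probe sets in mutants (red) and wild types (blue). Points are the fitted differences and lines their 95% intervals, not adjusted for the number of tests. Dusp4 (-3.92 and -3.34) and Spry1 (-2.79 and -1.60) lie to the left of 0, most others lie to the right, and the Spred1 probe sets fall into 5 at 1.75 to 2.47 and 2 at 0.63 to 0.81.

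Etv4 was the member without a measurable level. Its probe set 1423232_at read 2.49 to 2.86 on the 12 arrays. Its other probe set, 1443381_at, read 3.35, 2.48 and 2.48 in mutant adults, against 2.48, 4.36 and 2.52 in wild-type adults, and 2.19 to 2.48 in mutant embryos, against 2.19 to 2.48 in wild-type embryos. Only wild-type adult 2 exceeded the filter value of 4. The other 7 untested probe sets belonged to genes with a tested one: 3 of Spry4, 1 of Spry2, 1 of Spred1, 1 of Spred2 and 1 of Etv5. They read between 2.19 and 4.60, and Spry4 1422020_at lay at the floor on all 12 arrays.

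The rest of the pathway was counted over gene lists with 1 probe set per gene, and 0 of the 73 genes measured in 7 lists were called between genotypes at either stage by limma. Over all probe sets 0.0246% were called in adults and 0.0641% in embryos. Unadjusted p-values under 0.05 were found for 3 of the 73 in adults and for 1 in embryos, against 930 and 920 of all 20292 probe sets. Positive differences made up 55.4% of all probe sets in adults and 47.4% in embryos. Among other feedback regulators, 7 of 10 listed genes were measured; 6 of the 7 were positive in adults (median 0.14) and 3 of 7 in embryos (median -0.01). The 9 members measured the same way were positive in 3 in adults (median -0.17) and in 8 in embryos (median 0.11), where the median of all 11449 genes was 0.03 in adults and -0.01 in embryos. Lrig1, which encodes a membrane protein that dampens receptor tyrosine kinases, had the lowest p of these regulators in adults (difference 0.38, adjusted p = 1). Dusp7, the gene of another cytoplasmic ERK phosphatase, had the lowest in embryos (0.36, adjusted p = 1). Il17rd stood at 0.37 in embryos.

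Other ERK target genes, 10 of 13 measured, were positive in 4 in adults and in 5 in embryos. Egr1, an immediate early transcription factor gene, stood at 0.17 in adults and at -0.38 in embryos, the lowest p of the list in embryos. Phlda1 stood at 0.29 and Ccnd1, the gene of cyclin D1, at 0.20 in embryos. Activity-regulated immediate early genes, 10 of 13 measured, were positive in 8 in adults (median 0.20) and in 4 in embryos (median 0.00). Nuclear repressors and partners of ERK targets, 6 of 6 measured, were positive in 6 in adults and in 3 in embryos. Among them Cic, the gene of Capicua, stood at 0.39 in adults and 0.21 in embryos. These values describe the lists, whose genes share the same arrays.

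Upstream, 6 of 13 listed fibroblast growth factor ligands and receptors were measured, and 3 were positive at each stage. Fgfr1, a main receptor for these factors in the forebrain, read 7.71, 7.67 and 7.64 in mutant adults, against 7.08, 7.23 and 7.40 in wild-type adults (1424050_s_at). All mutant adults lay above all wild-type adults, and the difference of 0.44 had a limma adjusted p of 0.666. The adult genotypes did not overlap in 9.65% of all probe sets, in either direction. Its probe set 1425911_a_at read 6.07, 6.59 and 6.61 in mutant adults, against 5.70, 6.42 and 6.63 in wild-type adults, and there the genotypes overlapped. Another Fgfr1 probe set, 1436551_at, is not described here. In the embryos Fgfr1 stood at -0.13. Fgfbp3, whose product binds these growth factors, had the lowest p of the list in embryos (0.38). Of other receptor tyrosine kinases and ligands, 17 of 23 were measured, with 3 positive in adults and 7 in embryos; Egfr stood at -0.34 in adults (adjusted p = 0.984) and Nrg3 at 0.64 in embryos. Of the RAS, RAF, MEK and ERK core with its adaptors, 22 of 32 were measured, with 14 positive in adults and 10 in embryos, led by Nras at 0.33 in adults and by Braf at -0.21 in embryos.

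**Figure D5:**
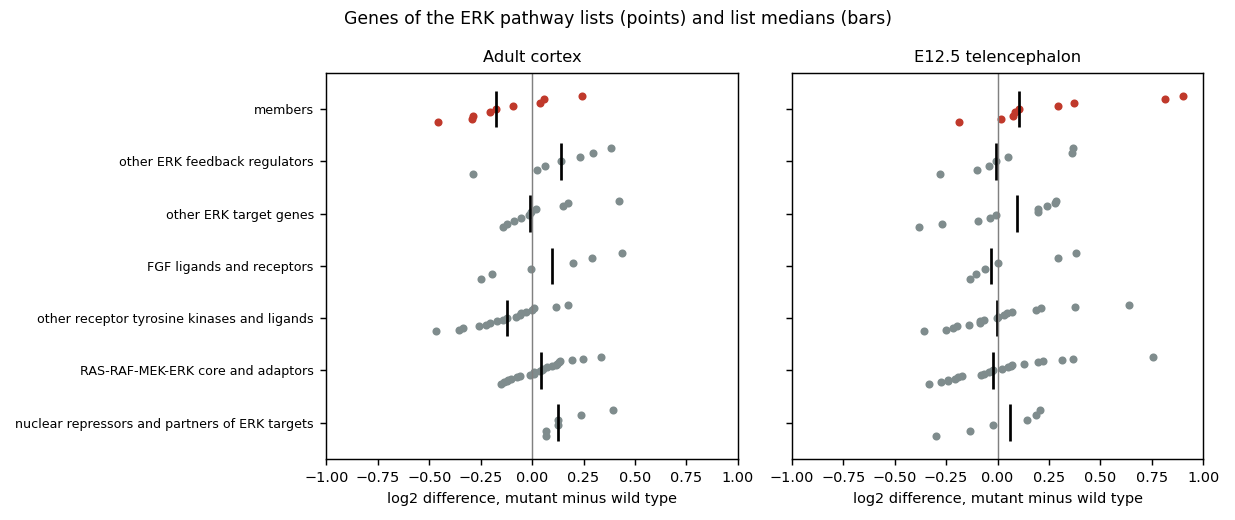
Difference in log2 expression, mutant minus wild type, for each measured gene of 7 lists in adult cortex (left) and E12.5 telencephalon (right), with 1 probe set per gene. Points are genes, in red for the feedback regulators and targets described here and in grey for the other lists, and bars are list medians. The red median is -0.17 in adults and 0.11 in embryos, and 0 genes of these lists were called.

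Between stages, other genes of the pathway moved in both directions as the members did. Most probe sets on the array did so too: 36.5% of all were called higher and 43% lower in mutants, and 35.7% and 43.5% in wild types. Of the 7 other feedback regulators, 5 were higher and 2 lower in adults in mutants, and 4 were higher and 2 lower in wild types. The lower ones were Il17rd (-3.14 in mutants and -2.91 in wild types) and Lrig1 (-1.68 in mutants and -2.10 in wild types). Of 6 measured fibroblast growth factor genes, 4 were lower in adults in each genotype, Fgfr1, Fgfr2, Fgfr3 and Fgfbp3, and Fgf1 and Fgf9 were higher. Fgfr3 differed by -1.62 in mutants and -1.81 in wild types, and Fgf1 by 5.49 in mutants and 5.09 in wild types. Of 10 other targets, 6 were higher and 4 lower in adults in each genotype, with Egr1 7.15 higher in mutants and 6.60 higher in wild types and Ccnd1 at -2.76 in mutants and -2.51 in wild types.

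For each of the 9 tested members, the gene outside the group whose profile over the 12 arrays was most like it was found among 11440 genes by Pearson's r. The highest were Lsm1 for Dusp4 (r = 0.997), Prrg3 for Spred1 (0.996), Enho for Spry2 (0.993), Ptgs2 for Spred2 (0.989) and Slc9a3r1 for Etv5 (0.981). Dusp6 was most like Tln1 (0.975), Spry1 most like Mir670hg (0.974), Dusp5 most like Top1mt (0.939) and Spry4 most like Vapa (0.842). The 12 arrays share 4 groups and fall apart by stage, so these coefficients mostly follow the difference between adult and embryo and are given as descriptions.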

How the data were processed

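Biotin-labelled targets were made from total RNA in 2 cycles of amplification, per the labels. The authors deposited a log2 expression value for each probe set on each array. GCRMA is the tool in the submitters' processing notes, a method that models background from probe sequence; its version and settings are not stated there. Quantile-based steps can hide a shift shared by all genes. The log2 values were used as deposited, with array medians of 3.64 to 3.74.

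Of the 45101 probe sets, 34945 had 1 gene symbol in the platform annotation, with names updated through RefSeq. Those over 4 on at least 3 of 12 arrays (20292, of 11449 genes) were fitted with limma 3.58.1 in R 4.3.3 (lmFit and eBayes, 4 group means, 8 residual degrees of freedom), and p-values were adjusted by Benjamini-Hochberg over all of them. Every adjusted p in the text is limma's, and a call is an adjusted p under 0.05. Intervals are 95% intervals of single differences. Arrays give no counts, and their number limits the precision. In simulated data of 20292 probe sets, 100 were changed by 1 log2 unit and 100 by 2 in the mutant embryos. Of these changes 71% and 93% were called. The real embryonic comparison called 13 probe sets, and the adjusted threshold depends on how many probe sets change. These shares are therefore not the chance of calling a member. In embryos the SE was 0.60 for Spry1 and 0.28 and 0.25 for the probe sets of Etv5.

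Groups came from the labels. Adult arrays are different mice by label; for embryos the labels give only the parents, so that p-values there measure the spread between these arrays. Embryos are paired by the crosses in the labels: deviations from the group mean correlated at 0.454 within the first cross, at 0.134 to 0.188 within the second, and at -0.304 to -0.226 between them. The block entered only an alternative.

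The members and lists were chosen with earlier results of these data known. Named genes are all members, Kat6b, up to 4 genes with the lowest p per list in each mutant comparison, and the gene most like each member; list levels are means over 1 probe set per gene. The alternatives were of 16 kinds and varied the filter, the probe sets, the scaling, the samples and the variance model.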

Additional observations from a re-analysis of the deposited data

How the results depend on the processing

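Between genotypes at either stage, and for the difference between the stages, 0 of the 19 member probe sets were called under every alternative run, including each array left out. Over all probe sets the calls in adults were 5 and ran from 0 to 12, those in embryos were 13 and ran from 1 to 66, and those of the difference between stages were 3 and ran from 0 to 12; leaving out 1 array gave 0 to 4, 6 to 16 and 1 to 6. The replicate block (age pair, parental cross) lowered these counts to 1, 3 and 0 and called no member; for Etv5 in embryos its adjusted p-values were 0.744 and 0.697. Adults of the same age pair correlated at 0.188, 0.006 and 0.217 in their deviations, and those of other pairs at -0.275 to 0.186, so not every adult correlated best with its own pair. The block lies within a stage, so it could not be fitted for the stage comparisons.

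With 1 probe set per gene 8 of 9 members were called between stages in mutants and 8 of 9 in wild types, and with the mean of the probe sets of a gene likewise 8 and 8; the smaller number tested sets these counts. In the main fit 79.5% of all probe sets were called between stages in mutants and 79.3% in wild types, so these counts do not set the members apart. With that mean Spred2 as a whole stood at 0.71 in mutants and at 0.75 in wild types, which turns the sign of its probe set 1441802_at. Of the single member values between stages, 15 in mutants and 17 in wild types lost their call under an alternative, of 458 in each, and 6 in wild types gained one with the same sign, all of Spry4. Spred2 1441802_at, uncalled, also gained a call with the mean of the probe sets, in both genotypes. Changes of under 1 log2 unit were not simulated.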
